A study of Caenorhabditis elegans with 6 samples.

Results

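The genes described here encode the Argonautes, the Dicer and the RNA-dependent RNA polymerases of the germline small RNA pathways of *C. elegans*. They are 9 of the 17397 genes with a value in the deposited data, taken by their WormBase identifiers. The set was chosen with earlier results of these data known. The identifiers of *alg-3* and *alg-4* come from a part of the study's gene table that holds its differential genes and genes with positive changes. The Argonautes are *alg-3*, *alg-4*, *csr-1*, *prg-1* and *rde-1*, the Dicer is *dcr-1*, and the polymerases are *rrf-3*, *ego-1* and *rrf-1*. RNA came from whole worms of 2 strains, the wild-type strain N2 (wt) and the *dcap-1(tm3163)* strain, called *dcap-1(rf)* because the allele reduces the function of the decapping subunit DCAP-1. Each strain was sampled as 3 populations of 200 to 300 worms on day 9 of adulthood, and each population was hybridized on its own Affymetrix *C. elegans* Genome Array. All worms of both strains had grown at 20 °C on the bacterium OP50 with 10 µg/mL FUDR, a drug that prevents the growth of progeny, and the bacteria for the arrays had been killed by UV. FUDR acts on dividing cells, germ cells included, and both strains received it. The mutant strain stands for 1 allele.

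What a small RNA does in the worm germline depends on the Argonaute that holds it. DCR-1 and the polymerase RRF-3 make the 26G-RNAs, which ALG-3 and ALG-4 bind during spermatogenesis. The polymerases EGO-1 and RRF-1 then copy target mRNAs into secondary 22G-RNAs. CSR-1 carries 22G-RNAs that keep germline genes expressed, whereas other Argonautes of the worm carry 22G-RNAs that silence. PRG-1 binds the piRNAs of the worm, called 21U-RNAs, and RDE-1 takes up the siRNAs that DCR-1 cuts from foreign double-stranded RNA. The comparison of the strains asks how the mRNAs of this machinery stood in mid-aged worms with impaired mRNA decapping.

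The values are log2 expression values made with RMA, which quantile-normalizes the probe signals over the arrays and does not say whether a gene was detected. Array medians ranged from 2.18 to 2.24. Pearson's r for pairs of arrays ranged from 0.990 to 0.997 over genes, which are not independent replicates. *dcap-1* itself was lower on all 3 *dcap-1(rf)* arrays (-0.77 on the log2 scale, standard error 0.08, adjusted p = 0.00469 from limma). The strains were compared with limma over the 13047 genes left after the 25% with the lowest average were removed, and a gene was called differentially expressed at an adjusted p under 0.05. All 9 small RNA genes passed that filter, whose lowest retained average was 1.33. With 3 arrays per strain, an exact permutation test cannot go below p = 0.10. RNA of whole worms does not show which cells a transcript came from, so more germ cells of a kind and more mRNA per germ cell cannot be told apart. The study sorted its own list of differential genes into classes, and there *alg-3* stands under the soma-specific ones, although ALG-3 is known as a germline Argonaute.

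None of the 9 genes was called differentially expressed in this fit, *alg-3* included. The study lists *alg-3* among its differential genes, and its methods name surrogate variable analysis, which the model here leaves out. With 1 and 2 components of the residuals added to the model as stand-ins, *alg-3* was not called either (adjusted p = 0.0687 and 0.0680 from limma). These components need not equal the surrogate variables of the study. Why the calls differ was not tested. Over all genes tested 211 were called, which is 1.62%. At an unadjusted p under 0.05, 2 of the 9 passed in limma, against 13.8% of all genes tested (7.59% higher and 6.22% lower in *dcap-1(rf)*). These were *alg-3* and *alg-4*, the paralogs that bind 26G-RNAs in the spermatogenic germline. They were also the genes of the set whose arrays did not overlap between the strains, and both were higher in *dcap-1(rf)*. Both were matched through the part of the study's gene table that holds its differential genes and genes with positive changes. Their direction is therefore not independent of the matching. Of all genes tested 18.6% did not overlap in either direction, with the mutant higher in 8.93% and lower in 9.67%.

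*alg-3* (T22B3.2, WBGene00011910_at) spans 11704246 to 11708264 of chromosome IV in the WBcel235 build. Its RMA values were 2.39, 2.52 and 2.16 on the wt arrays, in the order of replicates 1, 2 and 3. In the same order the *dcap-1(rf)* arrays had 3.33, 2.82 and 3.01. Every mutant array lay above every wt array, and the gap between the highest wt array and the lowest mutant array was 0.30 on the log2 scale. The means were 2.36 ± 0.18 in wt and 3.05 ± 0.25 in *dcap-1(rf)* (SD, n = 3 each). The log2 fold change was 0.70 (standard error 0.15), which is 1.62-fold, with a 95% interval of the fold from 1.28 to 2.05. Ranked by p-value *alg-3* was number 309 of all genes tested, and its adjusted p was 0.0714 (limma, Benjamini-Hochberg). The difference therefore did not pass the threshold, although it was larger than the SD of either strain. Of all genes tested, 1.58% had a log2 fold change at least as large as that of *alg-3*.

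The *dcap-1(rf)* array with the highest *alg-3* value was replicate 1. Without it the log2 fold change of *alg-3* was 0.56 (adjusted p = 0.154 from limma), and without *dcap-1(rf)* replicate 2, the lowest of the mutant arrays, it was 0.81 (adjusted p = 0.0861 from limma). Over all 6 fits without an array the adjusted p of *alg-3* ran from 0.0861 to 0.231, and the mutant was higher in 6 of 6 such fits. *alg-3* was called in one processing alternative, the centring of each array on its median (adjusted p = 0.0450 from limma). Over the 8 alternatives that kept all arrays and had no block, its adjusted p ran from 0.0450 to 0.0819.

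*alg-4* (ZK757.3, WBGene00006449_at) spans 9887210 to 9891424 of chromosome III. Its RMA values, in replicate order, were 2.45, 2.47 and 2.45 for wt. The *dcap-1(rf)* values were 2.59, 2.81 and 2.69. The wt arrays lay close together and all mutant arrays stood above them, by at least 0.12. The means were 2.46 ± 0.01 and 2.70 ± 0.11 (SD, n = 3 each). The log2 fold change was 0.24 (standard error 0.08), or 1.18-fold with a 95% interval of the fold from 1.04 to 1.35, and it was not called (adjusted p = 0.242 from limma). A log2 fold change of at least this size was found in 8.74% of all genes tested. The mutant arrays ranked differently for the paralogs: *alg-3* was highest on replicate 1, and *alg-4* was highest on replicate 2 and lowest on replicate 1. The averages of the genes over all 6 arrays, 2.70 for *alg-3* and 2.58 for *alg-4*, were 1.38 and 1.25 above the lowest average that passed the filter. They were also the lowest averages of the set, since the other 7 genes ranged from 3.87 to 7.15. The array medians over all genes were 2.18 to 2.24. *alg-3* and *alg-4* are similar in sequence, and signal shared between them on the array was not separated here.

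**Figure D1:**
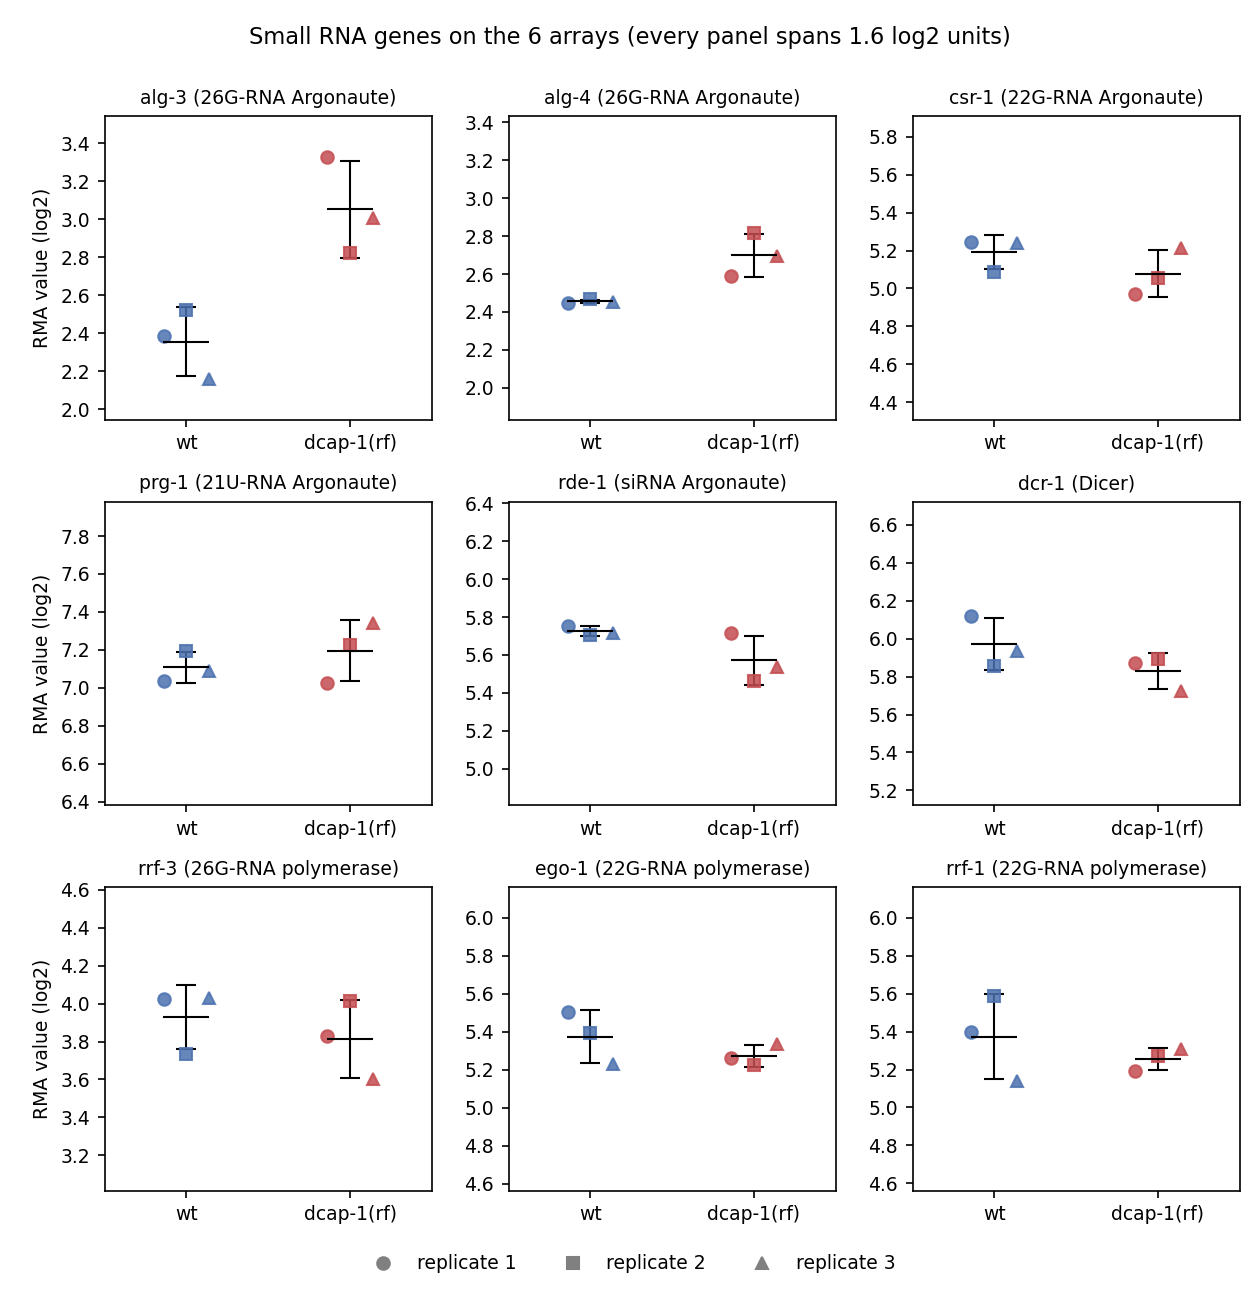
RMA values (log2) of the 9 small RNA genes on the 3 wt arrays (blue) and the 3 *dcap-1(rf)* arrays (red), 1 panel per gene and 1 symbol per replicate, with the mean and SD in black. Every panel spans the same number of log2 units, so distances can be compared between panels; *alg-3* and *alg-4* have no overlap between the strains, and the other 7 genes overlap.

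To compare the paralogs directly, the *alg-4* value was subtracted from the *alg-3* value of the same array. In replicate order the difference was -0.06, 0.05 and -0.29 for wt. It was 0.74, 0.01 and 0.32 for *dcap-1(rf)*. The strains overlapped here, because *dcap-1(rf)* replicate 2 lay below wt replicate 2. On average the log2 fold change of *alg-3* exceeded that of *alg-4* by 0.45, and this was not significant (exact permutation test, two-sided, p = 0.2, smallest p possible 0.1). The size of the excess rested in part on *dcap-1(rf)* replicate 1, without which it was 0.26.

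The other 7 genes had log2 fold changes between -0.16 and 0.09, and their adjusted p from limma lay between 0.473 and 0.735. In each of them the arrays of the strains overlapped. Their 95% intervals, which are not adjusted for the number of genes, all lay inside a 1.5-fold change in either direction. With *alg-4* that makes 8 of 9 genes, and 87.6% of all genes tested had such an interval. The same 8 genes, and 97.2% of all genes tested, lay inside a 2-fold change. Among the 7 genes the intervals reached furthest to 1.33-fold lower in *dcap-1(rf)*, for *rrf-3*, and to 1.25-fold higher, for *prg-1*. Of the 7 genes 6 had a log2 fold change below 0, as did 55.4% of all genes tested, whose median was -0.02.

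**Figure D2:**
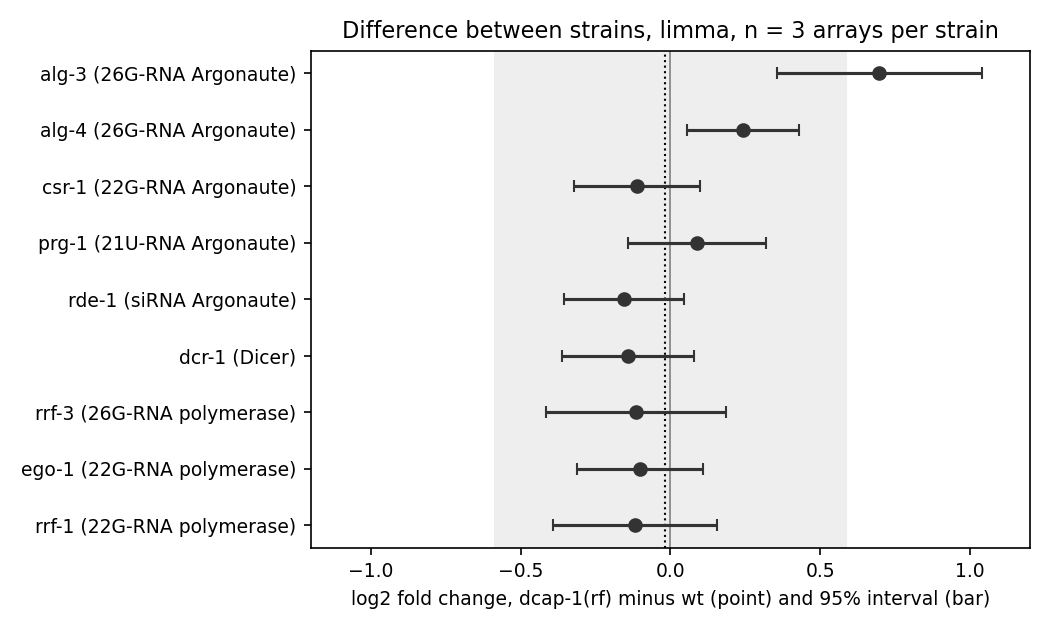
Log2 fold change of the 9 small RNA genes, *dcap-1(rf)* minus wt, with the 95% interval from limma (n = 3 arrays per strain). The grey band is a 1.5-fold change in either direction and the dotted line is the median of all genes tested, -0.02; the interval of *alg-3* runs from 0.36 to 1.04 and leaves the band, and the other intervals lie within it.

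Upstream in the 26G pathway, *dcr-1* (K12H4.8, WBGene00000939_at, chromosome III from 8071967 to 8080281) encodes the only Dicer of the worm, which cuts double-stranded RNA for the miRNA and siRNA pathways alike. Its RMA values were 6.12, 5.86 and 5.93 on the wt arrays and 5.87, 5.89 and 5.72 on the *dcap-1(rf)* arrays, in the order of the replicates. All mutant arrays lay below the wt mean of 5.97 ± 0.14 (SD, n = 3), but only replicate 3 lay below the lowest wt array. The strains differed by -0.14 on the log2 scale (standard error 0.09), and limma gave an adjusted p of 0.553. Dropping wt replicate 1, the highest array, brought the difference to -0.07, and dropping *dcap-1(rf)* replicate 3 to -0.09. *rrf-3* (F10B5.7, WBGene00004510_at, chromosome II from 8162465 to 8168651), whose product synthesizes the antisense strand of 26G-RNA precursors, had values of 4.02, 3.73 and 4.03 in wt and 3.83, 4.01 and 3.60 in *dcap-1(rf)*. The ranges of the strains overlapped, with SDs of 0.17 and 0.21, the largest mutant SD of the set after that of *alg-3*. Its log2 fold change came to -0.11 with a standard error of 0.13 (adjusted p = 0.735 from limma), and leaving out *dcap-1(rf)* replicate 3 brought it to -0.01. It was -0.21 when wt replicate 2 or *dcap-1(rf)* replicate 2 was dropped.

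The polymerases of the 22G step are neighbours. *rrf-1* (F26A3.8, WBGene00004508_at) lies on chromosome I from 7643426 to 7649777 and *ego-1* (F26A3.3, WBGene00001214_at) from 7650341 to 7656338, with 563 bases between them. EGO-1 is required for a fertile germline, and RRF-1 acts in the soma and, partly redundantly with EGO-1, in the germline. *ego-1* had values of 5.50, 5.39 and 5.23 on the wt arrays and 5.26, 5.22 and 5.34 on the *dcap-1(rf)* arrays. *rrf-1* had 5.40, 5.59 and 5.14 in wt and 5.19, 5.27 and 5.31 in *dcap-1(rf)*. In both genes wt replicate 3 was the lowest wt array, and the mutant arrays stood closer together than the wt arrays, with SDs of 0.06 against 0.14 for *ego-1* and 0.06 against 0.23 for *rrf-1*. All mutant arrays of both genes were below the wt mean. The log2 fold changes were -0.10 for *ego-1* (standard error 0.09, adjusted p = 0.655 from limma) and -0.12 for *rrf-1* (standard error 0.12, adjusted p = 0.693 from limma). For *ego-1* the value was -0.04 when wt replicate 1 was dropped and -0.18 when wt replicate 3 was dropped. The value for *rrf-1* leaned on the wt arrays: leaving out wt replicate 2 brought it to -0.01 and leaving out wt replicate 3 to -0.24, and neither was called.

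Downstream of the 22G-RNAs, *csr-1* (F20D12.1, WBGene00017641_at, chromosome IV from 7957267 to 7962157) encodes the Argonaute that protects germline transcripts and is required for chromosome segregation. Its values were 5.24, 5.09 and 5.24 in wt and 4.97, 5.05 and 5.21 in *dcap-1(rf)*, and mutant replicates 1 and 2 lay below all wt arrays while replicate 3 lay among them. The mean difference was -0.11 on the log2 scale, with a standard error of 0.09 (adjusted p = 0.628 from limma). It was -0.06 when *dcap-1(rf)* replicate 1 was dropped and -0.18 when *dcap-1(rf)* replicate 3 was dropped. Its sign was opposite to that of *alg-3* and *alg-4*, and none of the differences passed the threshold.

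Of the Argonautes that take up other small RNAs, *prg-1* (D2030.6, WBGene00004178_at, chromosome I from 7585329 to 7588367) encodes a Piwi protein of the worm. It had values of 7.04, 7.19 and 7.09 in wt and 7.02, 7.22 and 7.34 in *dcap-1(rf)*. Mutant replicate 1 lay below all wt arrays and mutant replicates 2 and 3 above them, so the mean difference, 0.09 on the log2 scale with a standard error of 0.10 (adjusted p = 0.732 from limma), averaged arrays that lay on both sides. Leaving out *dcap-1(rf)* replicate 1 brought it to 0.18 (adjusted p = 0.446 from limma), and leaving out *dcap-1(rf)* replicate 3 to 0.02 (adjusted p = 0.962 from limma). *rde-1* (K08H10.7, WBGene00004323_at, chromosome V from 9987916 to 9991642), which is needed for RNA interference, had 5.75, 5.71 and 5.72 in wt and 5.72, 5.46 and 5.53 in *dcap-1(rf)*. Mutant replicates 2 and 3 lay below all wt arrays. Mutant replicate 1 carried the same value as wt replicate 3 to the last deposited decimal, as happens on at least 2 arrays in 4004 genes of the data. *rde-1* had the most negative log2 fold change of the set, -0.16 with a standard error of 0.09 (adjusted p = 0.473 from limma), and without *dcap-1(rf)* replicate 1 it was -0.23 (adjusted p = 0.283 from limma). It was -0.10 when *dcap-1(rf)* replicate 2 was dropped (adjusted p = 0.752 from limma).

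The arrays did not order these genes alike. Relative to the wt mean, *dcap-1(rf)* replicate 1 was the highest array for *alg-3*, at 0.97, and the lowest for *csr-1*, at -0.22. *dcap-1(rf)* replicate 3 was the lowest array for *dcr-1* and *rrf-3*, at -0.25 and -0.33, and the highest for *prg-1*, at 0.23. So no array was high or low across the whole set.

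To see which genes behaved most like *alg-3*, each gene was taken relative to its wt mean and the root mean square difference from *alg-3* over the 6 arrays was computed. The closest of all genes tested was a gene without a name in the tables used, WBGene00015024, at 0.10, followed by *nlp-30* at 0.14, T08B6.4 at 0.15, ZK742.4 at 0.16 and T24C4.4 at 0.16. *nlp-30* encodes a small antimicrobial peptide of the epidermis. They were chosen for their likeness over these 6 arrays, so that they share the non-overlap and the highest array of *alg-3*, *dcap-1(rf)* replicate 1, follows from the choice. Their log2 fold changes were 0.70, 0.83, 0.86, 0.49 and 0.61 in that order, and all but ZK742.4 were called (adjusted p = 0.0358, 0.0255, 0.00940, 0.201 and 0.0358 from limma). When the arrays were left out one by one, T08B6.4 was called in 5 of 6 fits, *nlp-30* in 2 and WBGene00015024 and T24C4.4 in none. By this measure *alg-4* was at rank 941 of 13046 genes with a root mean square difference of 0.40, ahead of *prg-1* at rank 3379 and the remaining 6 genes of the set.

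**Figure D3:**
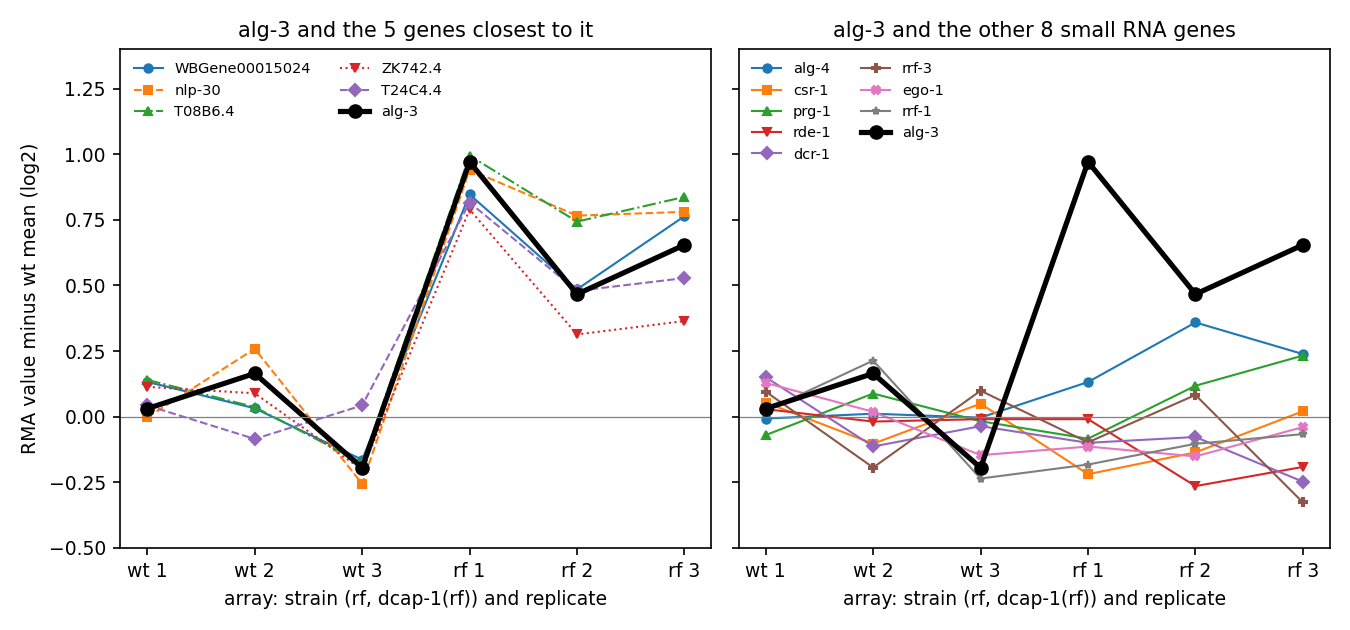
RMA value minus the wt mean of the gene (log2) on each of the 6 arrays. Left, *alg-3* in black with the 5 genes closest to it; right, *alg-3* in black with the other 8 small RNA genes. On *dcap-1(rf)* replicate 1 *alg-3* stands at 0.97, and on *dcap-1(rf)* replicate 2 at 0.47, near *alg-4* at 0.36.

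Genes listed as markers of spermatogenesis were set beside *alg-3* and *alg-4*. Which cells of these worms express each of them was not tested. Of 23 such genes 6 could be matched to an identifier, all from a part of the study's gene table that holds positive changes, so their common direction was set by the matching. None of the 6 was called, and their summed linear signal ran from 99.6 to 106 on the wt arrays and from 121 to 150 on the *dcap-1(rf)* arrays. Most of that sum was *fog-1*, and the other 5 together ran from 33.7 to 38.7 in wt and from 39.1 to 51.4 in *dcap-1(rf)*. *fog-1* and *fog-3*, which set the sperm fate of germ cells, had log2 fold changes of 0.33 (adjusted p = 0.215 from limma) and 0.45 (adjusted p = 0.417 from limma), the latter the largest of the list. The smallest was that of *spe-4*, a presenilin of developing sperm, at 0.18 (adjusted p = 0.449 from limma). The markers did not share 1 order of the arrays: *fog-1*, *fog-3*, *spe-4* and *spe-44* were highest on *dcap-1(rf)* replicate 3, and *spe-11* and *try-5* on *dcap-1(rf)* replicate 2. Their part in the *alg-3* and *alg-4* values was not tested.

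For 22 genes the study notes a positive effect of the paralogs on protein amounts in sperm. It took them from the genes upregulated on these arrays, so their direction is not independent evidence. Relative to the wt mean of each gene, their median was 0.90, 0.99 and 0.95 on the *dcap-1(rf)* arrays in replicate order. On the wt arrays it lay between -0.08 and 0.05. The mutant arrays stood close together for these medians. Over the same arrays *alg-3* spread from 0.47 to 0.97 and *alg-4* from 0.13 to 0.36. A median over 22 genes varies less than the value of 1 gene, and the choice of the 22 genes favours close arrays. The spreads therefore cannot be set against each other.

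Other genes of the small RNA pathways could hardly be counted. Of 71 listed Argonautes, Dicer and ERI partners, mutator factors, RNA-modifying enzymes, transport, P granule and miRNA factors, 5 could be matched to an identifier, and all 5 stand in the part of the study's gene table that holds its differential genes and genes with positive changes. None was called here, against 1.62% of all genes tested, and all 5 had an unadjusted p under 0.05, which the way they were matched favours. *rrf-2*, which encodes another RNA-dependent RNA polymerase, had values of 2.90, 2.79 and 3.19 in wt and 3.20, 3.61 and 3.55 in *dcap-1(rf)*. All mutant arrays were higher, by a mean of 0.49 (standard error 0.14, adjusted p = 0.187 from limma), although mutant replicate 1 stood barely above wt replicate 3. *wago-11*, of the worm-specific Argonautes, was the only one of the 5 that was lower, from 1.83 ± 0.10 in wt to 1.45 ± 0.06 in *dcap-1(rf)* (SD, n = 3 each), which is -0.37 on the log2 scale (standard error 0.08, adjusted p = 0.0817 from limma). *sid-5*, for the transport of silencing RNA, differed by 0.34 (adjusted p = 0.183 from limma), *prde-1*, for the transcription of piRNA precursors, 0.26 (adjusted p = 0.267 from limma), and *ain-1*, a partner of miRNA Argonautes, 0.19 (adjusted p = 0.309 from limma).

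Of 20 oogenesis markers only *egg-2*, a sperm receptor of the egg surface, was matched, with 8.17 ± 0.03 in wt and 7.92 ± 0.05 in *dcap-1(rf)* (SD, n = 3 each, log2 fold change -0.25, adjusted p = 0.157 from limma). It was matched through the study's list of differential genes, so its direction is not independent of the matching. None of 12 general germline markers was matched. Of 12 somatic markers 4 were, again by way of positive changes, and none was called; *col-19*, an adult cuticle collagen, had the largest log2 fold change (0.62, adjusted p = 0.166 from limma) and *elt-2*, a transcription factor of the intestine, the smallest (0.20, adjusted p = 0.293 from limma). The summed linear signal of the 4 was 84.1 to 91.4 on the wt arrays and 93.9 to 146 on the *dcap-1(rf)* arrays. Their part in the *alg-3* and *alg-4* values was not tested either.

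**Figure D4:**
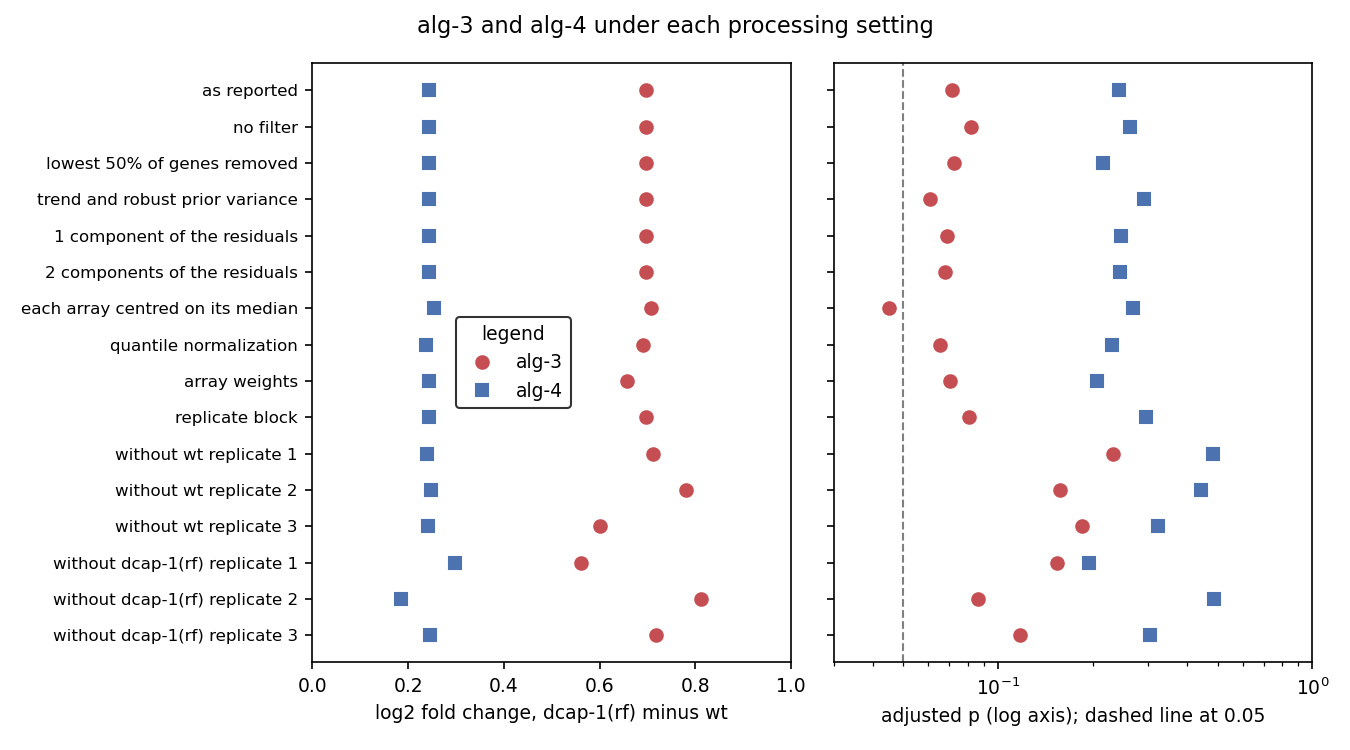
Log2 fold change (left) and adjusted p from limma on a log axis (right) of *alg-3* and *alg-4* as reported and under each of 15 alternative settings; the dashed line is the threshold of 0.05. *alg-3* falls below it only with each array centred on its median, at 0.0450, and *alg-4* in no setting.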

How the data were processed

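Total RNA (150 ng per sample) of 3 wt and 3 *dcap-1(rf)* populations was labelled with biotin and hybridized on Affymetrix *C. elegans* Genome Arrays. The authors deposited log2 values made with RMA under default parameters, the BrainArray ENSG chip description file and, per the labels, R 3.3.0 and WBcel235. The methods name surrogate variable analysis without saying whether these values carry it.

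The values were used as deposited. Strains were compared in limma 3.58.1 (R 4.3.3) by a model that holds the strain alone; the 25% of the 17397 genes with the lowest average were removed, eBayes was run on the remaining 13047 (3.53 prior degrees of freedom) and p was adjusted by Benjamini-Hochberg over all of them. Standard errors and 95% intervals are moderated ones. The script was tested on simulated data. The model was also run without the filter, with the lowest 50% removed, and with a trended robust prior, residual components, median centring, quantile normalization, array weights, a replicate block and each array left out. The exact permutation test was run with scipy 1.17.1 under Python 3.11.15, with pandas 2.3.3 for tables, numpy 2.4.6 and, for plots, matplotlib 3.10.9.

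Identifiers of *alg-3* and *alg-4* come from the study's gene table and those of the other 7 genes from the definition of the set. Positions come from the RefSeq gene table of WBcel235. Other names come from the first 1998 genes of the study's gene table, of which the 1668 outside its list of differential genes all have positive changes here; the rest of that table was not used here. The genes and lists were chosen with earlier results of these data known. Named genes are the 9 genes, called genes and the largest and smallest change of each list, the 5 patterns closest to *alg-3* and, as a check of the labels, *dcap-1*; the other matched pathway genes, *fog-1* and array-level values were chosen after their values were seen. No sequence is shown, since no sequence table was used here. The methods say that the populations were harvested and analyzed independently, and do not say how they were kept apart before that. The p-values rest on the spread between these 3 populations per strain. In limma the spread of a gene is also moderated by the spreads of all genes tested.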

Additional observations from a re-analysis of the deposited data

How the results depend on the processing

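The alternatives changed few results on the small RNA genes. Over the 9 genes and 15 alternative settings, the direction and the side of the threshold stayed in 134 values and changed in 1. The filters, the prior, the residual components and the replicate block left the log2 fold changes as they were, so the direction could not change there. The changed value was *alg-3* with each array centred on its median (log2 fold change 0.71, adjusted p = 0.0450 from limma). The number of these genes called was therefore 1 with centring. It was 0 with each array left out, where each fit had fewer arrays. Why centring changed the call was not tested. Over all genes, 328 were called once 1 residual component, a stand-in for a surrogate variable, entered the model, and 411 with 2 components. The components were taken from the residuals of the same model. They take up residual spread by construction, so these counts cannot show that a surrogate variable was needed. With an array left out the number ran from 84 to 306. It was lowest, at 84, when wt replicate 2 was dropped, 94 when wt replicate 1 was dropped and 122 when *dcap-1(rf)* replicate 2 was dropped. Dropping *dcap-1(rf)* replicate 3 gave the highest number, 306, above the 211 called with all arrays. Why the number rose without that array was not tested. Genes called lower numbered 21, and 54 and 84 with 1 and 2 components, 35 with centring, 34 with quantile normalization, 35 with array weights and from 9 to 26 with an array left out. The excess of *alg-3* over *alg-4* ran from 0.26 to 0.63 with an array left out. With the replicate number as a block, 246 genes were called, 33 of them lower, *alg-3* had an adjusted p of 0.0810 and *alg-4* of 0.296 from limma, and the block changed the call of none of the 9 genes. Arrays of the same number correlated at 0.05, 0.08 and 0.12 in their deviations from the strain means, and arrays of different numbers from -0.105 to 0.038. All 6 of 6 arrays correlated best with their own number. The deviations of a strain cancel for each gene by construction, so these 6 matches are not independent of each other. Whether the numbers mark a shared batch was not tested, and the model as reported does not pair the samples. The matched pathway and marker genes had 0 calls in every setting. Precision is limited by the number of arrays.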
